A study of Drosophila melanogaster with 2 samples.

Results

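Chromatin immunoprecipitation was used to map where ADD1 sits on the genome of Drosophila melanogaster embryos, and this account is about the peaks that lay inside introns a short way from a transcription start. A peak was taken when its summit fell inside a gene, in no exon of any transcript, and 501 to 2000 bp from the nearest annotated start of any gene. The rule used position only and no peak height. It took 1176 of 7944 peaks in the deposited IDR list. IDR, the irreproducible discovery rate, measures how well replicates rank the same peaks. That is 14.8% of the list (exact 95% interval 14.0 to 15.6). For comparison, 1573 peaks lay in introns more than 2000 bp from any start, and 3903 lay within 500 bp of a start, called promoter peaks here.

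All samples belonged to 1 group. They were whole embryos collected from 0 to 24 h, of both sexes, from a transgenic line whose ADD1 carries GFP at the C terminus, and an anti-GFP antibody was used for the precipitation. The chromatin was sonicated to a size range of 200 to 800 bp. There were 2 biological replicates of 1 line, which pool all tissues and stages of embryogenesis, and no second condition. The control used in peak calling was not analysed here, and sequencing depth was unknown.

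ADD1 has an ADD domain, a zinc-binding fold found in chromatin proteins such as the mammalian ATRX, and is known as a partner of the heterochromatin protein HP1a. First introns of flies are often long and are known to carry enhancers and additional promoters. Such elements are read by sequence-specific DNA-binding proteins.

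The sequences under the highest peaks are shown first because base composition is later described for the strongest peaks, and then those of peaks that carry a pair of related words, because these words return in the results. A stretch centred on the summit, 50 bases to each side, follows for the 3 strongest peaks, on the plus strand of the dm6 assembly, with runs of 5 or more A or T in capitals. They lie at chr2L:6612661-6612761 in CG11050, chr2L:3302115-3302215 in CG9663 and chrX:2137311-2137411 in ph-p, and A and T make up 78.2%, 66.3% and 68.3% of them, in that order. Eligible positions averaged 61.1% ± 10.8 (SD over positions, windows of 51 bp). The printed stretches are longer than those windows, so this SD is not the spread that applies to them.
CG11050: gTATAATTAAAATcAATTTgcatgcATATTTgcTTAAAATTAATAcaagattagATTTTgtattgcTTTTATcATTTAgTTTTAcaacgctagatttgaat
CG9663: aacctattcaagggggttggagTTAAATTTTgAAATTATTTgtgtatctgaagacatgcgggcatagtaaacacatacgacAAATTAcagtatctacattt
ph-p: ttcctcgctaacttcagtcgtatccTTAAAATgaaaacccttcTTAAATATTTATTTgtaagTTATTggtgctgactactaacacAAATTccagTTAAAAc

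The next 4 sequences are from the 8 peaks, among the 100 strongest, that hold a related word on each side of the summit. Each spans 241 bases centred on the summit, on the plus strand, with the words in capitals. They lie at chr2L:3655702-3655942 in for, chrX:11351424-11351664 in CG1737, chrX:1830635-1830875 in prage and chrX:4919561-4919801 in Hgsnat.
for: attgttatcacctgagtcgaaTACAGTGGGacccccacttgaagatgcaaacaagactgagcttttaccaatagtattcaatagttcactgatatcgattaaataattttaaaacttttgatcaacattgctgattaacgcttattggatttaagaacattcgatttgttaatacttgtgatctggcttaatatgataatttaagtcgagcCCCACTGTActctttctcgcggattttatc
CG1737: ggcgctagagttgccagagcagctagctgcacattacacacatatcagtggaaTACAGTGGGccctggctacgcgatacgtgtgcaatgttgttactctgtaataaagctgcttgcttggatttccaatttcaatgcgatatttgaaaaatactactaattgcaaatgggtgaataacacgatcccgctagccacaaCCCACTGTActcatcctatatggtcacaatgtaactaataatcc
prage: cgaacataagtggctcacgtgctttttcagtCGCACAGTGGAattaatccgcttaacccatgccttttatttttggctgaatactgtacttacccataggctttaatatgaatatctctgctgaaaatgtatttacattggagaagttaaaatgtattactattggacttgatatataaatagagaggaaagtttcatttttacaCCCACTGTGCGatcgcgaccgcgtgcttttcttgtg
Hgsnat: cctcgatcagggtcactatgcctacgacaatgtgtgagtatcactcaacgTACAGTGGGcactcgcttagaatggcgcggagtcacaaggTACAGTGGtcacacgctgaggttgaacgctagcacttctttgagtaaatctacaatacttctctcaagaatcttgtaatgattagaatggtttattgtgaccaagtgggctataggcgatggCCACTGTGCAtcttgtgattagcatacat

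In each of these 4 sequences the words to the left of the summit read with ACAGT and those to the right with its reverse complement ACTGT, so that the pair faces inward.

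Intron sequence close to a start held more peaks per base than intron sequence further away. Sequence that meets the position rule, called eligible sequence here, adds up to 11.4 Mb and held 103 summits per Mb. Introns more than 2000 bp from a start, 41.4 Mb, held 38.0 per Mb, and all ungapped sequence held 59.4. Taking the same number of strongest peaks from each replicate gave 98.8 summits per Mb near a start in replicate 1 and 99.8 in replicate 2. The values further away were 40.0 in replicate 1 and 33.9 in replicate 2, so the replicates did not overlap between the 2 zones.

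Density was highest next to the inner limit and did not fall steadily. It was 136 summits per Mb between 500 and 750 bp and 105 between 750 and 1000 bp. In the 4 bins from 1000 to 2000 bp it was 94.6, 96.5, 79.6 and 93.9. It was 58.8 in the next bin, up to 2250 bp, and 75.3 in the one after it. Across the same limit it was 77.9 and then 60.8 in replicate 1, and 77.3 and then 62.9 in replicate 2. In the outermost bin plotted, up to 5000 bp, it was 52.8. The median signal of a 250-bp bin lay between 213 and 237 throughout the zone.

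**Figure D1:**
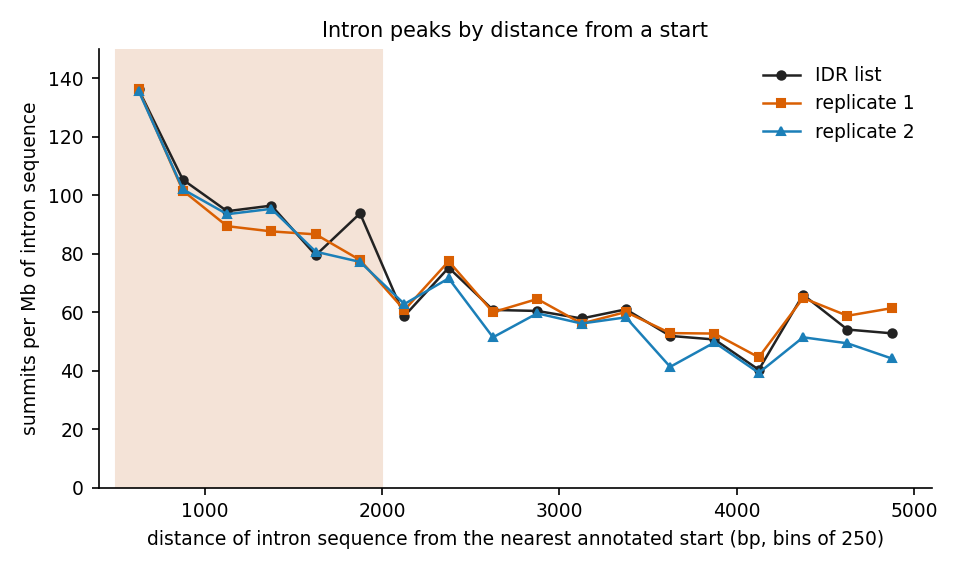
Summits per Mb of intron sequence (vertical axis) by distance from the nearest annotated start in bins of 250 bp (horizontal axis), for the IDR list and for the equally many strongest peaks of replicate 1 and replicate 2; the shaded zone is that of the rule. All 3 lists start near 136 per Mb and lie between 44.2 and 61.4 per Mb in the last bin.

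Most of these peaks were of middling height, and a few were among the highest of all. Signal is the authors' deposited value per peak. Its scale was not stated, so it was compared only within a list. Its median was 222 in the near-start introns (quartiles 163 and 385, range 130 to 7816), 211 in introns further away, 283 at promoters and 243 in the whole list. The ratio of their median to that of the list was 0.914, and 0.948 in replicate 1 and 0.911 in replicate 2. In the stronger 3972 peaks alone the ratio was 1.03. The median width was 235 bp, against 231 bp for the list.

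At the top of the list these peaks were over their share. They made up 6 of the 25 strongest peaks and 25 of the 100 strongest (25%, exact 95% interval 16.9 to 34.7), against 14.8% of the list. In replicate 1 they were 7 of 25 and 21 of 100, and in replicate 2 they were 7 of 25 and 30 of 100. Their share was 16.8% among the 500 strongest, 14.7% among the 1000 strongest and 13.2% among the 4000 strongest. Introns more than 2000 bp from a start were under their share there. They gave 0 of the 25 strongest, which allows a share of up to 12% when a count of 0 is read as up to 3 counts, and up to 13.7% by the exact 95% interval. They gave 10 of the 100 strongest and 19.8% of the list.

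**Figure D2:**
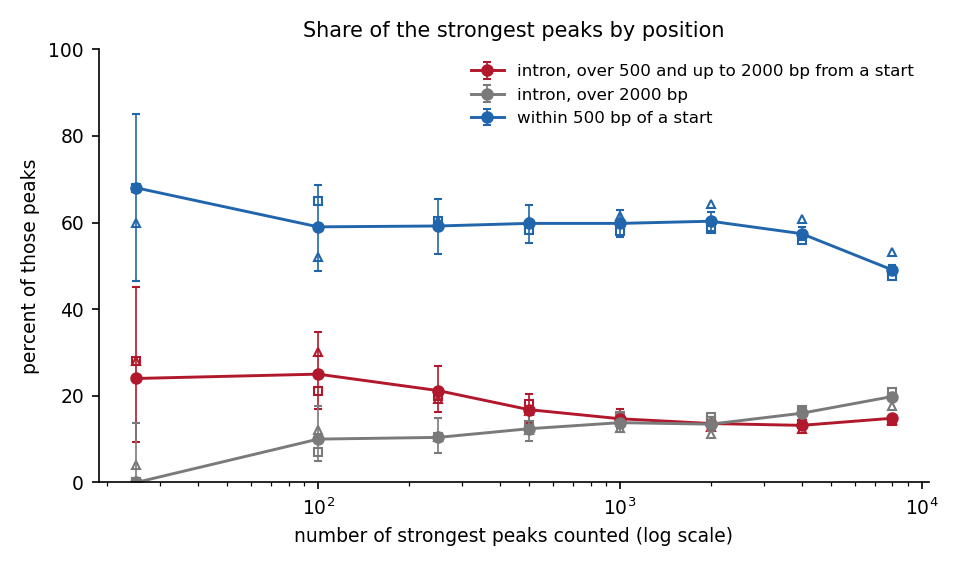
Percent of the strongest peaks (vertical axis) that fall in each position class, against how many of the strongest peaks are counted (horizontal axis, log scale). Filled points and lines are the IDR list with exact 95% intervals, open squares replicate 1 and open triangles replicate 2; near-start introns hold 25% of the 100 strongest IDR peaks and 14.8% of all, while introns over 2000 bp from a start hold 10% and 19.8%.

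Nearly all of the peaks were found in both replicates. A summit within 200 bp was present in both replicate lists of 30000 peaks for 1145 of them (97.4%, exact 95% interval 96.3 to 98.2), against 97.8% of introns further away, 95.3% of promoter peaks and 96.4% of the IDR list. The IDR list was made from these lists, so this describes it and does not test it. Of the remaining peaks, 11 were matched in replicate 1 alone and 20 in replicate 2 alone. Among the 7944 strongest of both replicates were 65.1% of them, against 64.7% of introns further away and 70.1% of the list. Across the 1145 matched peaks the ranks in the replicates had a Spearman rho of 0.603, given as a description over sites of the same libraries.

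A peak near a start was also more often kept by the IDR threshold than one further into an intron. The list called on both replicates together held 4776 peaks that meet the rule, and 24.6% of them were in the IDR list (exact 95% interval 23.4 to 25.9). The share was 16.7% for introns further away, 48.3% for promoters and 26.5% over all 30000 joint peaks. Since the IDR list equals the strongest joint peaks, the share restates how high the peaks of a class were.

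**Figure D3:**
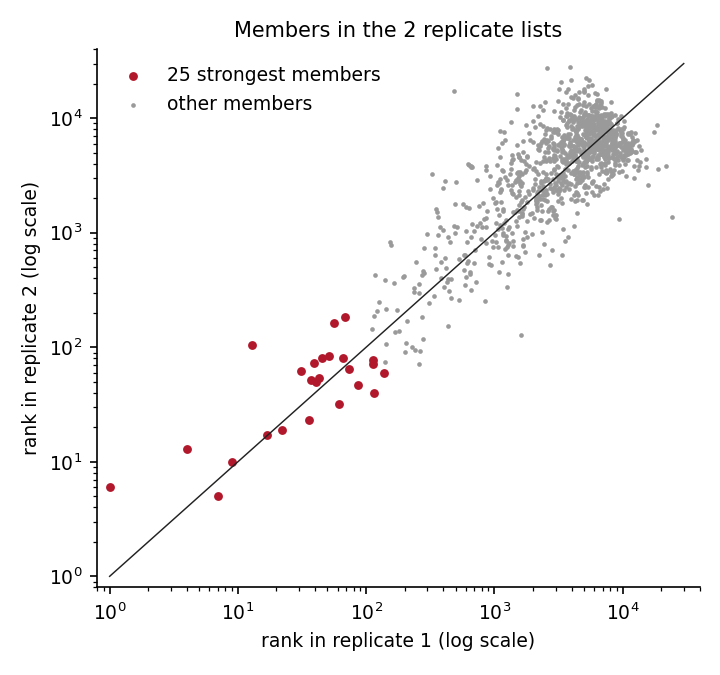
Rank of each near-start intron peak in replicate 1 (horizontal axis) and replicate 2 (vertical axis), both on log scales, for the 1145 peaks matched in both, with the line of equal rank. The 25 strongest, in red, all rank within 139 in replicate 1 and within 185 in replicate 2.

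The 25 strongest were picked by the signal called on both replicates together, so high ranks in each replicate in part follow from that choice. Each of them ranked within the 250 strongest of both, and 18 ranked within the 100 strongest of both. Their median width was 436 bp, and 22 were in a first intron. The strongest lay in an intron of CG11050 of only 140 bp, 1024 bp from the start (2L, 6612389 to 6613008), with signal 7816, rank 1 in replicate 1 and rank 6 in replicate 2. The interval is wider than the intron and reaches into exons. The next, in CG9663 (2L, 3301836 to 3302628), had signal 6625 and ranked 7 and 5 in replicates 1 and 2.

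Genes of signalling and chromatin control were among the hosts. The peak in ph-p, a core gene of Polycomb repressive complex 1, had its summit 506 bp from a start, just inside the limit (X, 2136983 to 2138140, signal 5816). Its ranks were 4 in replicate 1 and 13 in replicate 2, and its 1158-bp interval reached into an exon and into the 500 bp around the start. The peak in Lk6, a kinase of the translation factor eIF4E, lay 965 bp upstream of a start of the same gene (3R, 11760875 to 11761565, signal 5680). It ranked 9 in replicate 1 and 10 in replicate 2. The peak in norpA, the phospholipase C of fly vision, lay 1375 bp downstream of a start (X, 4324788 to 4325158, signal 3904) and ranked 22 and 19.

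The peak in ush, which encodes a cofactor of GATA factors, had the widest ratio between its replicate ranks among the 25. It ranked 13 in replicate 1 and 105 in replicate 2 (2L, 480854 to 481289, signal 3462), and its nearest start, 1429 bp away, belongs to cbt. The peak in wde, whose product works with the histone methyltransferase Eggless, ranked 74 and 64 (signal 2208). The peak in elav, the classic neuronal RNA-binding protein gene, lay 605 bp from the start and ranked 139 in replicate 1 and 60 in replicate 2 (signal 1885). The other hosts of the 25 strongest were CG3726, KCNQ, CG9837, LPCAT, Reph, NFAT, Fem-1, chif, MYPT-75D, for, Kank, mub, CG1737, CG32772, egh, Tob and prage, with signals between 1918 and 4113. Of the 25, 11 were on the X chromosome, as were 30 of the 100 strongest and 235 of all 1176. X holds 19.3% of the eligible sequence and 18.7% of the IDR list. Strong peaks elsewhere were on X too. Among the 100 strongest peaks of the whole list, 6 of the 10 in introns further away were on X, and 13 of the 59 promoter peaks.

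Per Mb of eligible sequence there were 107 on X, 94.3 on 2L, 120 on 2R, 91.9 on 3L and 106 on 3R. Chromosome 4, which is rich in HP1a, held 3 of them in 0.129 Mb, or 23.3 per Mb, and each replicate had 4 there. With 3 peaks, counting error is large.

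The peaks lay mostly in first introns. Of the 1176, 979 (83.2%, exact 95% interval 81.0 to 85.3) had the summit in a first intron of some transcript of the host, as did 83.4% in replicate 1 and 84.4% in replicate 2. The eligible sequence, sampled every 200 bp, lay in a first intron at 64.3% of 57146 positions, and peaks in introns further from a start did so in 61.5%. Second introns held 11.1% of them, and later introns held 66. The median signal was 228 in first introns, 210 in second and 193 in later ones.

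Their side of the start was close to that of the eligible sequence. The summit was downstream of the nearest start for 64.1% (exact 95% interval 61.3 to 66.9), against 64.5% of eligible positions, and 62.5% in replicate 1 and 64.4% in replicate 2. The shares differed more by whose start it was. For 304 of them (25.9%) the nearest start belonged to a gene that spans the summit and lay further along that gene, against 16.6% of eligible positions. Where genes overlap, a start of any gene over the summit was counted here, and 100 summits (8.50%) lay in more than 1 gene. A start behind the summit, of a gene that spans it, was nearest for 691 (58.8%, against 54.5% of eligible positions). Where the nearest start was that of another gene, 118 lay upstream of it, against 18.9% of eligible positions, and 63 downstream of it (5.36%). The median length of the introns was 5255 bp, against 4845 bp at eligible positions.

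Starts next to these peaks often held a peak of their own. A second IDR summit lay within 500 bp of the nearest start for 649 of the 1176 (55.2%, exact 95% interval 52.3 to 58.1), against 51.4% for intron peaks further away. It was 50.8% in replicate 1 and 55.0% in replicate 2. Counting each start once, 53.3% of the 1000 starts nearest to such a peak held a promoter peak, against 24.5% of the 11723 starts that border eligible sequence and 23.4% of all annotated starts. Among host genes, 74.3% had a promoter peak at some start of their own, against 27.0% of the 8564 other genes with eligible sequence. A peak at any start of the gene counts, and the 2 sets were not matched for size or number of starts. Their median eligible sequence was 3234 bp in host genes and 309 bp in the others. How active these genes were in the embryo was not measured.

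The intron peak was the higher of the pair in 261 of the 649 cases (40.2%), and the median ratio of intron peak to start peak was 0.819. In replicate 1 it was the higher in 45.5% of pairs and in replicate 2 in 38.8%. Among the 25 strongest, 18 had a start peak, and in all 18 the intron peak was higher, with a ratio between 2.02 and 27.2. These 25 were picked for their signal, which is part of that ratio. The median signal was 222 for intron peaks with a start peak and 222 for those without one. In replicate 1 it was 143 with and 129 without, and in replicate 2 it was 111 with and 104 without.

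Some of the peaks touched a neighbouring feature. The interval of 151 of them (12.8%) reached into the 500 bp around a start, that of 75 (6.38%) touched an exon, and 14 shared their interval with another summit. Another IDR summit lay within 1000 bp for 45.3% of them. The position rule in part sets this share, since promoter peaks can lie that close to a near-start summit and not to one over 2000 bp from a start. Only 2 summits lay in an annotated mobile element, 0.170% against 2.66% of eligible positions. The whole IDR list was close to this, at 0.227%. Soft-masked sequence, which marks repeats, held 12.6% of summits, against 11.5% in the whole list and 19.0% of eligible positions.

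The peaks lay in introns of 864 genes, 839 of them protein-coding, which is 9.16% of the 9428 genes with eligible sequence. In replicate 1 the count was 855 genes and in replicate 2 it was 835. A peak inside overlapping genes counts for each. Host genes offered more room, with a median of 3234 bp of eligible sequence, against 309 bp in the other genes. Of genes with up to 500 bp of it, 0.383% held a peak, and of those with more than 4000 bp, 43.7% did. A single peak was held by 592 genes, 2 peaks by 183 genes and 3 by 63.

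There were 15 genes with 5 or more. Tlk, the gene of the Tousled-like kinase (X, 3720007 to 3789770), held 9 in 17688 bp of eligible sequence, and 8 in each replicate. Its highest had signal 936. The noncoding gene lncRNA:CR44357 also held 9, and it overlaps CG1677, which held 7 with signals from 311 to 814. NFAT, a transcription factor gene, held 6 in 6034 bp, with signals from 200 to 2687. CG32264 and bun held 7 each. SNF4Agamma, a subunit of the energy-sensing kinase AMPK, and shot, which links actin and microtubules, held 6 each. Irk1 and the overlapping CG46310 held 5, as did shn, larp, tou, tna and pnt. The replicates differed by 3 at bun (7 in replicate 1 and 4 in replicate 2), at pnt (5 and 2) and at lncRNA:CR44357 (7 and 10).

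Genes of 19 lists, which range from signalling and patterning to kinases, ion channels and RNA binding, held such peaks more often than genes at large when pooled, and they also had more eligible sequence. Of the 450 listed genes that had eligible sequence, 112 held a peak (24.9%), against 9.16% of all genes. This was 21.6% in replicate 1 and 23.6% in replicate 2. The median eligible sequence of listed genes was 1500 bp, against 383 bp over all genes. At more than 4000 bp, 54.7% of 128 listed genes held a peak, against 43.7% of all 844 genes of that size. From 2000 to 4000 bp both shares were 25.4%, and from 1000 to 2000 bp they were 24.5% of 102 listed genes and 15.0% of all 1577 genes. From 500 to 1000 bp the order was the other way, with 1 of 45 listed genes (2.22%) and 5.40% of all 1074 genes. Up to 500 bp, 0 of 112 listed genes held one, which allows a share of up to 2.68% by the limit of 3 counts, against 0.383% of all genes.

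Kinase and phosphatase genes had the highest share, 15 of 33 (45.5%, exact 95% interval 28.1 to 63.6), and 13 in replicate 1 and 15 in replicate 2. Their median eligible sequence was 1500 bp, and 15.0% of all genes with 1000 to 2000 bp held a peak. Lk6, Doa and flw held their strongest. Doa, a kinase of splicing factors, had signal 808, and flw, a catalytic subunit of protein phosphatase 1, had 662. The list of transcription factors and stress regulators followed with 10 of 25, led by sima, the fly hypoxia-inducible factor, with signal 420, then cnc and kay. Ecdysone response and nuclear receptor genes held one in 7 of 19. The transcription factor and ecdysone lists had medians of 3588 and 3714 bp of eligible sequence, and 25.4% of all genes with 2000 to 4000 bp held a peak. EcR, the ecdysone receptor gene, had signal 1509, and Hr4 and br had 633 and 396.

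Signalling lists held peaks in 3 of 14 to 9 of 24 genes, and their median eligible sequence ran from 995 to 2724 bp. Of all genes with 500 to 1000 bp, 5.40% held a peak. It was 15.0% of those with 1000 to 2000 bp and 25.4% of those with 2000 to 4000 bp. Receptor tyrosine kinase and Ras genes counted 9 of 24, with InR, the insulin receptor gene, at signal 1376, sty, an inhibitor of the pathway, at 1137, and drk, its adaptor, at 804. TGF-beta and JAK-STAT genes counted 6 of 17, led by the SMAD gene Mad at 1200, then the receptor gene wit at 974 and shn at 659. Wnt and Hedgehog genes counted 7 of 21, and Notch genes 3 of 14. The kinase gene sgg led the first of these with signal 608, followed by Wnt4 and dally, and neur, mam and numb were the 3 of the second, at 476, 277 and 207. Wnt and Hedgehog genes had 6 in replicate 1 and 4 in replicate 2.

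Cytoskeleton and junction genes counted 12 of 35, with Moe, which ties actin to the membrane, at signal 1498, the polarity gene crb at 915 and cno at 712. RNA-binding and splicing genes counted 11 of 33, with mub at 2198, elav at 1885 and ps at 971. Neural regulators and adhesion genes counted 8 of 33, among them mub, elav and NetB, and muscle genes 7 of 25, led by mbc at 646, then Tm1 and Mef2. The neural and RNA-binding shares were 24.2% and 33.3%, at medians of 3294 and 3457 bp of eligible sequence. Of all genes with 2000 to 4000 bp, 25.4% held a peak. Gut, gland and tracheal genes counted 5 of 22, crb, bowl and rib among them. The cytoskeleton, muscle and gut lists had medians of 1624, 1500 and 1565.5 bp of eligible sequence. Of all genes with 1000 to 2000 bp, 15.0% held a peak. The muscle count was 4 in replicate 1 and 6 in replicate 2.

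The remaining lists had shares from 3.57% to 20%, on both sides of the 9.16% of all genes. The 9428 genes behind that level include 5220 with up to 500 bp of eligible sequence, of which 0.383% held a peak. Median eligible sequence was 418 bp for heterochromatin, 435 bp for cell cycle and 457 bp for germ line genes. The Polycomb and Hox lists had medians of 545 and 947.5 bp, and 5.40% of all genes with 500 to 1000 bp held a peak. The dorsoventral list had a median of 3635 bp. Of 28 Hox and segmentation genes with eligible sequence 1 held a peak, lab, with signal 150 and rank 10380 in replicate 1 and 5817 in replicate 2. Of 17 heterochromatin genes the 1 was wde (5.88%, exact 95% interval 0.149 to 28.7). Ion channel and synapse genes counted 4 of 34 (11.8%), norpA, Pka-R2 and Nmdar1 leading, with a median of 3443 bp of eligible sequence. Of all genes with 2000 to 4000 bp, 25.4% held a peak. Germ line and piRNA genes counted 3 of 22 (BicD at 937, pum and gcl), and cell cycle genes 3 of 21 (trbl at 765, Cdk4 and E2f1). Dorsoventral and early zygotic genes counted 3 of 17, ush, ths and sog. Polycomb and trithorax genes counted 6 of 30, with Trl, the GAGA factor gene, at 1491 after ph-p, and osa at 415. Intervals of lists this small are wide, for Hox and segmentation genes 0.0904% to 18.3%.

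The base composition at the summits differed with peak height. In the 51 bp at the summit, A and T made up 59.2% ± 10.8 (SD over 1176 sites), and windows centred 500 bp to either side held 59.3% and 59.1%. Introns further away had 59.7%, promoters 54.7% and eligible positions 61.1%. In the 100 strongest it was 64.8% ± 10.7 (SD over 100 sites), with 60.3% and 57.3% in the flanking windows. More than 70% A and T was found in 39 of these 100, against 17.6% of all near-start intron peaks and 22.9% of eligible positions. Replicate 1 had 22.6% and replicate 2 had 10.4% of near-start intron peaks above that level. The replicates differed here, with means of 60.8% in replicate 1 and 56.7% in replicate 2. Summits of a matched peak differed in median by 6 bp from replicate 1 and 12 bp from replicate 2.

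**Figure D4:**
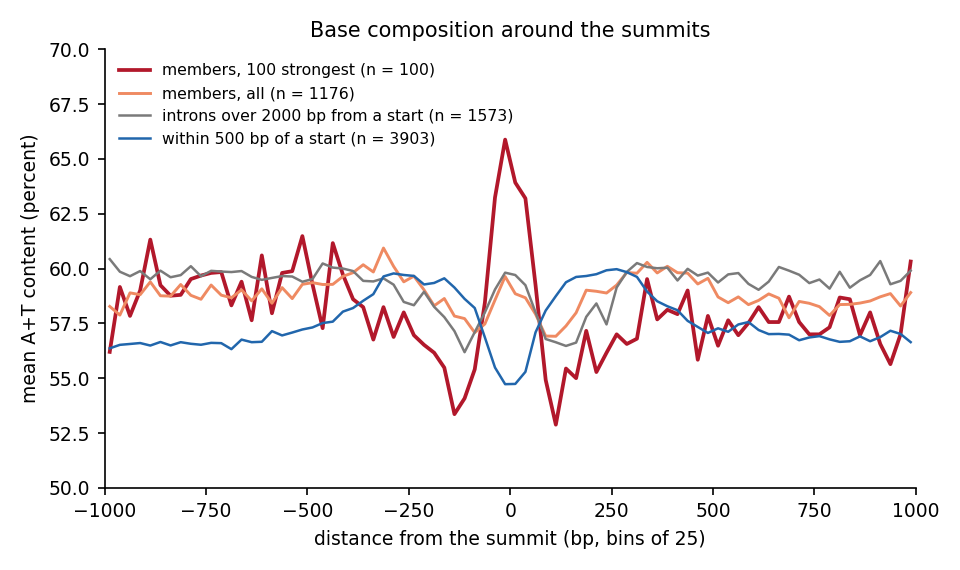
Mean A and T content in percent (vertical axis, which starts at 50) in 25-bp bins by distance from the summit (horizontal axis). The 100 strongest near-start intron peaks reach 65.9% beside the summit and dip to 53.4% and 52.9% near 137.5 bp to the left and 112.5 bp to the right, whereas promoter peaks have their lowest value, 54.7%, at the summit.

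Words known from promoters were rare. In windows of 100 bp on either side of the summit, on either strand, the DRE word TATCGATA, read by DREF and BEAF-32, was present in 5 of the 1176 (0.425%), against 0.468% in windows 500 bp to either side, 0.381% of introns further away, 7.89% of promoter peaks and 0.393% of eligible windows. The M1BP word GGTCACACT was also present in 5, against 5.25% of promoter peaks and 0.112% of eligible windows. The Motif 7 word CATCNCTA was in 1.28%, against 6.58% of promoter peaks and 0.912% of eligible windows. A match or its absence describes these letters only.

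The word of the insulator protein Su(Hw) was more frequent at the summit than beside it, in few peaks. The word TGCATACTT of Su(Hw) was in 23 of 1176 (1.96%, exact 95% interval 1.24 to 2.92), against 0.553% in windows 500 bp to either side and 0.533% of eligible windows. It was in 1.77% in replicate 1, against 0.310% in the flanks, and 1.23% in replicate 2, against 0.570%. Other peaks shared this excess: 1.02% against 0.318% in the flanks for introns further away, and 1.01% against 0.321% in the whole list. At promoter peaks it was 0.410% against 0.269%. Of the 100 strongest near-start intron peaks 0 held it, which allows a share of up to 3.62% by the exact 95% interval. The word AGGTGGCGC of CTCF was in 7, or 0.595% (exact 95% interval 0.240 to 1.22), against 0.255% in the flanks, which lies inside that interval, and 0.126% of eligible windows. It was in 0.572% of introns further away (0.159% in their flanks) and in 0.755% of the whole list (0.189% in the flanks). The CTCF word was also in 0 of the 100 strongest near-start intron peaks. 1 site of the Su(Hw) word lies on the minus strand at chr3L:21049642-21049690 in siz, and 1 of the CTCF word on the minus strand at chr3L:11048037-11048085 in CG43693. They are printed with the word in capitals.
siz: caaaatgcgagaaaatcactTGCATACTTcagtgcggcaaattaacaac
CG43693: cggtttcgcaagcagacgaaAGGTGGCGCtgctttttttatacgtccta

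Most other words were near their flanking level. The GAGA factor word GAGAGAG was in 7.23% of the windows, against 6.21% in the flanks and 3.22% of eligible windows. The Combgap word CACACACA was in 9.01% of the windows, against 7.19% in the flanks and 5.31% of eligible windows. Repeats of this kind are bound by several proteins, and the share in the summit windows was 5.76% and 8.86% for GAGAGAG in replicates 1 and 2. The GATA factor word TGATAAG was in 6.8% of the windows, against 5.02% in the flanks and 4.26% of eligible windows. The Twist word CACATGT was in 3.91% of the windows, against 2.59% in the flanks and 2.72% of eligible windows. The Stat92E word TTCNNNGAA was in 4.59% of the windows, against 6.51% in the flanks and 6.56% of eligible windows. The Grainy head word AACNGGTT was in 3.32% of the windows, against 2.64% in the flanks and 2.78% of eligible windows.

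The other words gave these shares. AP-1 (TGANTCA) had 5.95% at the summit, 5.44% in the flanks and 5.41% in eligible windows. Caudal (TTTATGG) had 6.21% at the summit, 5.48% in the flanks and 6.91% in eligible windows. Pho (GCCATNTT) had 3.83% at the summit, 3.7% in the flanks and 3.97% in eligible windows. Zelda (CAGGTAG) had 0.765% at the summit, 0.893% in the flanks and 0.946% in eligible windows. CREB and ATF (TGACGTCA) had 0.85% at the summit, 0.765% in the flanks and 0.461% in eligible windows. The E-box of helix-loop-helix proteins (CAGCTG) had 9.27% at the summit, 8.59% in the flanks and 7.33% in eligible windows. No word of the 18 is contained in another. Leaving out Su(Hw), CTCF and Ets, the ratio of summit to flank ran from 0.706 for Stat92E to 1.51 for Twist over the 15 words, and it was above 1 for 12. The Ets word ACCGGAAGT was in 0 of 1176, which allows a share of up to 0.255% by the limit of 3 counts and up to 0.313% by the exact 95% interval.

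A search of all words of 8 letters for those most concentrated at these summits gave a set of related ones. Of the 10 leading words, 7 contain ACTGT or its reverse complement ACAGT: CACTGTGC, CACAGTGG, ACAGTGGG, ACAGTGGA, ACTGTGCA, ACTGTGCG and CCACTGTA. These overlap one another, and they were chosen for their excess in these windows, so that excess has no test. CACTGTGC was in 68 of 1176 (5.78%), against 1.06% in the flanks and 0.878% of eligible windows. CACAGTGG was in 66, against 1.45% in the flanks and 0.868% of eligible windows. The other 3 leading words were ACACTGAG, GGTAAATA and ATACACTG.

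For 158 of the peaks (13.4%, exact 95% interval 11.5 to 15.5, against 4.29% in the flanks) at least 1 of the 7 words was found up to 100 bp from the summit. It was 24% in the 100 strongest, 16% in the next 200, 13.7% in the next 300 and 10.6% in the rest. It was 12.9% over all in replicate 1 and 12.6% in replicate 2. The words occurred elsewhere too: 18 of the 100 strongest peaks further into introns and 19 of the 100 strongest promoter peaks had one.

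In the strongest peaks the words stood mostly beside the summit. Among the 100 strongest, 21 had a word 50 to 100 bp from the summit and 2 had one within 25 bp. Replicate 1 gave 23 and 2, and replicate 2 gave 20 and 4, from their own summits. Peaks elsewhere shared this placement, with 14 and 1 in the 100 strongest peaks further into introns and 14 and 1 in the 100 strongest promoter peaks. In the other 1076 peaks the counts were 73 and 30, or 6.78% and 2.79%. These 2 zones differ in width, 100 bp in all for the first and about 50 bp for the second. Within 150 bp, 29 of the 100 had a word, and 8 had one on both sides.

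**Figure D5:**
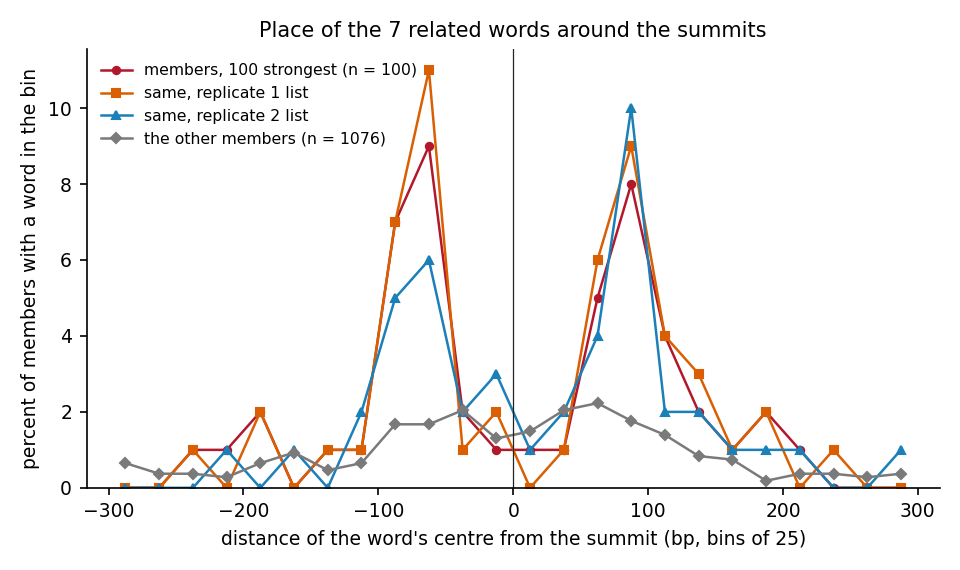
Percent of near-start intron peaks with 1 of the 7 related words in each 25-bp bin (vertical axis) by distance from the summit (horizontal axis), for the 100 strongest of the IDR list, the same of each replicate list, and the other 1076 peaks. The 100 strongest have 9% in the bin at 62.5 bp to the left, 8% in the bin at 87.5 bp to the right and 1% in each bin next to the summit.

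The words also had an orientation, which the choice of words, made on both strands together, had not used. Counting each side and strand of a peak once, within 150 bp, the 100 strongest had 38 occurrences, of which 32 faced the summit as in the printed pairs (84.2%). It was 34 of 42 in the 100 strongest of replicate 1 and 29 of 35 in those of replicate 2. In the other 1076 peaks, 116 of 175 faced inward (66.3%). The 8 inward pairs of the 100 strongest were 76 to 201 bp apart, with a median of 157 bp. Peaks elsewhere shared the layout, with 20 of 23 in the 100 strongest introns further away and 25 of 29 in the 100 strongest promoter peaks.

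Of the 29 of the 100 strongest with a word, 5 had a soft-masked summit, against 10 of the 71 without a word. The share of A and T at the summit was 68.1% ± 8.42 in the 29 and 63.4% ± 11.2 in the 71 (SD over sites). Of the 29, 10 were on X, against 20 of the 71.

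Just inside the lower limit were CG32512 at 503 bp (signal 231) and aru at 504 bp (signal 1465), and just outside it, at 500 bp, Synd (187) and sug (183). Just inside the upper limit were lbk at 1999 bp (245) and Rab11 at 1998 bp (197), and just outside it, at 2001 bp, CG43658 (286) and inaE (206).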

How the data were processed

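The deposited files were narrowPeak lists on dm6, per the file headers and labels: 1 per replicate and 1 from both replicates together, with 30000 peaks each, and the IDR list of 7944 peaks. The signal is the authors' deposited peak value. The sources used here do not name the caller or the aligner. Depth was unknown, so intervals cover counting error only and not differences between replicates.

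Summits were placed with FlyBase release 6.54 (transposable element genes left out), and sequence was read from the release 6 genome of RefSeq, coordinates counted from 1. Eligible sequence is intron sequence over 500 and up to 2000 bp from a start, sampled every 200 bp. Each replicate's 7944 strongest peaks were put through the same rule. Shares carry exact Clopper-Pearson 95% intervals. Words were sought 100 bp to each side of the summit on both strands, with flanking windows centred 500 bp away and 20622 eligible windows. Words of 8 letters were ranked by the count at the summit over the mean flank count plus 1% of the peaks.

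With 1 group of 2 replicates no test between conditions was possible, and none was run. The peaks, the 19 gene lists (508 of 524 names matched) and the words were chosen with earlier results of these data known. Genes named were the hosts of the 25 strongest peaks, genes with 5 or more peaks, up to 3 hosts of the strongest peaks per list and those at each limit. Hgsnat, siz and CG43693 were named for their sequences after their values had been seen. The classifier was checked on summits of the IDR list against an exhaustive search of the same annotation. The word search was checked on simulated sequence with planted words. Python 3.11.15, NumPy 2.4.6, pandas 2.3.3, SciPy 1.17.1 and matplotlib 3.10.9 were used.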

Additional observations from a re-analysis of the deposited data

How the results depend on the processing

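Of 88 alternatives 45 stayed within 1 SD between the 2 replicates (for counts, within 1.5 times) and 43 did not. Each replicate alone gave 14.2% to 14.4% of the list, a signal ratio of 0.911 to 0.948, 83.4% to 84.4% in a first intron, 50.8% to 55.0% with a start peak, 62.5% to 64.4% downstream, 98.8 to 99.8 peaks per Mb (added after seeing the data) and 21.6% to 23.6% of listed genes. The stronger 3972 peaks gave 522 members, 13.1% of the list, a signal ratio of 1.03, which is above that of the list, 85.8% in a first intron and 38.1% with a start peak, where weaker start peaks no longer count. Starts of protein-coding genes alone gave 14.2% of the list and 84.3% in a first intron. Distances over 1000 and up to 2000 bp gave 641 peaks, 8.07% of the list, 81.9% in a first intron and 69.0% downstream, and distances up to 3000 bp gave 19.1% and 81.8% in a first intron. A start peak within 200 bp was found for 41.7%. Any of the 18 words was found in 49.3% of windows of 100 bp to each side and in 30.4% of windows of 50 bp. Summits within 50 bp in both replicates were found for 80.9%, and 65.1% were among the strongest of both. No paired analysis was possible because there is 1 group. The unknown scale of the signal and the unknown depth limit any statement on height to ranks within a list.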
